A study of Mus musculus with 2 samples.

Results

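Rax, Six3, Six6, Vax1, Vax2, Nkx2-1, Nkx2-4, Barhl2 and Foxd1, transcription factor genes of the early hypothalamus and eye field, were followed on arrays that set mouse embryo brain of the Plzf lu/lu genotype against wild type brain at E10.5. They were taken by gene name from the annotation of the arrays, 9 of 37074 gene names, and were read by 14 probes. RNA of the forebrain and midbrain was used according to the methods, and the labels name the brain. On each of 2 arrays, described as biological replicates, RNA of C57BL/6 wild type embryos was labeled with Cy3 and RNA of luxoid embryos with Cy5. Luxoid (lu) is a spontaneous mutation of Plzf (Zbtb16), a zinc finger repressor, and lu/lu embryos are homozygous for it in every tissue. The number of embryos behind each sample is not given in the sources used here, and the dyes were not exchanged, so a dye effect on a probe and the genotype cannot be told apart. In RNA of a whole region, fewer cells of a type and less RNA per cell cannot be told apart either.

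The anterior neural plate forms a single eye field, which splits into the optic vesicles while the hypothalamus forms between them at the ventral midline. The homeobox genes Rax, Six3, Six6, Vax1 and Vax2 act in the eye field and its derivatives, and Nkx2-1 marks the hypothalamus and the ventral telencephalon. Sonic hedgehog from the midline promotes Nkx2-1 and the Vax genes, and Six3 is known to restrain Wnt signaling in the anterior brain and to activate Shh there. Foxd1 belongs to the forkhead family and is not a homeobox gene, but it is expressed in the early hypothalamus and in the temporal retina.

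The Zbtb16 probe served as a check of the labels, and it gave log2 ratios (lu/lu over wild type) of -1.33 and -1.37 on arrays 1 and 2. Forebrain and midbrain markers were present, with 13 of 13 telencephalon genes and 14 of 15 midbrain and isthmus genes above background in all 4 channels. Of 14 hindbrain and spinal cord genes, 4 were above background in all channels and 0 passed the signal filter. The filter of the study, a processed signal above 200 and a signal-to-noise ratio of at least 5, here required in both channels of both arrays, left 10600 genes. Zbtb16 was not among them, with a signal of 172 in lu/lu on array 1. The weaker requirement that the spot lie well above background in every channel left 23283.

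Some of the probes are shown, because probes of the same gene gave unequal ratios and because some genes rest on a single probe. Each probe is 60 bases long, and positions are those of the array annotation in build mm9. The brighter Nkx2-4 probe (A_51_P353934) lies 797 bases from the other one (A_55_P2083103). The brighter Nkx2-1 probe (A_52_P216427) lies 909 bases from the other one (A_66_P113793), which holds no stop codon in any of its 3 forward frames. Whether this other probe lies in coding sequence was not looked up. The Vax1 probe ends with a stop codon, in capitals. For the other probes only the last 30 bases are given, with a polyadenylation hexamer in capitals where these bases hold one.
Nkx2-4, A_51_P353934, last 30 bases, chr2:146909124-146909153, minus strand: ttgtagcccaaagtggatcatatacacagc
Nkx2-1, A_66_P113793, chr12:57634028-57634087, minus strand: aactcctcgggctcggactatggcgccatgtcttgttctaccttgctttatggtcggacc
Nkx2-1, A_52_P216427, last 30 bases, chr12:57633119-57633148, minus strand: ctgtacattatgttgtaaaaagaaccccag
Vax1, A_55_P2116880, chr19:59240677-59240736, minus strand: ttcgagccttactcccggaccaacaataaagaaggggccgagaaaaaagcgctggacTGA
Vax2, A_55_P1961620, last 30 bases, chr6:83688269-83688298, plus strand: gaAATAAAaaagggaactggtcccagcatc
Six6, A_55_P2175095, last 30 bases, chr12:74045855-74045884, plus strand: ggaaaggctccAATAAAagtctctgaatcg
Six3, A_55_P2082403, last 30 bases, chr17:86023379-86023408, plus strand: cagacagatacacacacaagtccatacaca

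Six3 and Vax2 exceeded 1.3-fold in favor of lu/lu on both arrays, and no gene of the 9 was lower by that much on both. Rax, Six6 and Nkx2-4 were higher in lu/lu on array 1 and had ratios below 1 on array 2. Nkx2-1 (at the brighter of its 2 probes only), Vax1 and Barhl2 were higher in lu/lu on both arrays, with ratios that were larger on array 1. Foxd1 had ratios slightly below 1 on both arrays. Only Rax, Six3, Vax2 and Foxd1 passed the signal filter, and the ratios of the other 5 genes come from dim spots.

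Six3, a sine oculis type homeobox gene of the anterior neural plate, had a processed signal of 261 in wild type and 401 in lu/lu on array 1. On array 2 the signals were 255 and 352. Both lu/lu samples were above both wild type samples. The log2 ratio was 0.62 and 0.47 on the 2 arrays, with a mean of 0.54 (SD 0.11, n = 2 arrays). In limma with Benjamini-Hochberg adjustment over the 10600 genes, the 95% confidence interval of the mean was 0.34 to 0.75 and the adjusted p was 0.0513. The other 2 Six3 probes were dim, with signals between 1.98 and 15.9. They were well above background in 2 and 1 of the 4 channels, and with all 3 probes averaged the Six3 ratio on array 2 was 0.15 and thus within 1.3-fold.

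Vax2, a homeobox gene of the ventral optic vesicle and retina, had a signal of 630 in wild type and 847 in lu/lu on array 1. On array 2 the signals were 683 and 907. Again both lu/lu samples lay above both wild type samples, and Vax2 had the smallest distance between the 2 arrays of the 9 genes. Its log2 ratio was 0.43 and 0.41, with a mean of 0.42 (SD 0.01, n = 2 arrays) and an adjusted p from limma of 0.0574. These ratios lie just above the 1.3-fold threshold, which is 0.38 on the log2 scale. Vax1, its paralogue in the optic stalk, had a signal of 70.8 in wild type and 104 in lu/lu on array 1, and 80.2 and 99.5 on array 2. Both lu/lu samples lay above both wild type samples here too, at signals under the filter. The log2 ratio of Vax1 was 0.56 on array 1 and 0.31 on array 2, so array 2 lies just under the threshold.

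**Figure D1:**
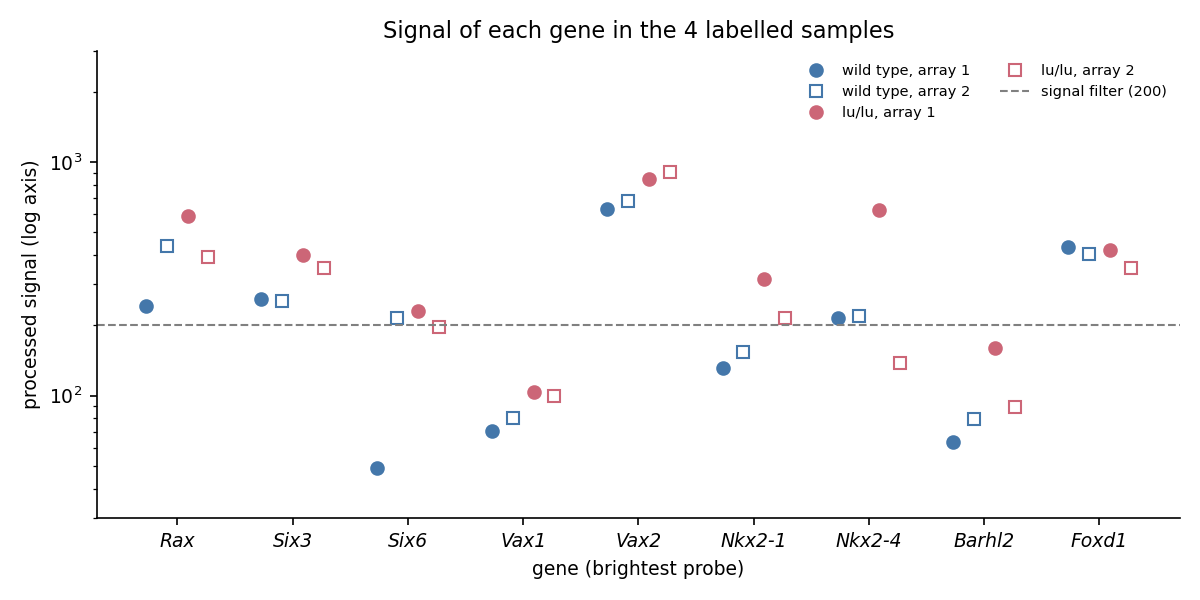
Processed signal (log axis) of the brightest probe of each of the 9 genes in wild type (blue) and lu/lu (red) on array 1 (filled circles) and array 2 (open squares). Both lu/lu points lie above both wild type points for Six3, Vax2, Vax1, Nkx2-1 and Barhl2, and the dashed line marks the signal filter of 200.

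With the signal filter, 2 of the 4 passing genes were above 1.3-fold on both arrays, against 2.58% of all genes tested. Below the inverse of 1.3-fold there were 0 of the 4, against 0.736% of all genes. In limma 0 of the 4 had an adjusted p under 0.05, against 0.0283% of the 10600 genes, while Six3 and Vax2 had unadjusted p of 0.000682 and 0.00165 in the same limma fit. The genes were chosen with results of these arrays known, so these shares describe the 9 genes and do not test them. Once the trend on probe GC content was removed, the adjusted p from limma was 0.021 for Six3 and 0.0299 for Vax2, with 6.67% of all genes under 0.05. After normexp background correction with centring on the passing genes it was 0.0251 and 0.0336, with 14.3% of all genes under 0.05, but then 0 of the 4 genes were above 1.3-fold on both arrays, with Six3 at 0.38 on array 2, under the threshold by less than the rounding, and Vax2 at 0.34 and 0.35.

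Rax, a paired-like homeobox gene without which the eyes do not form, had a signal of 242 in wild type and 589 in lu/lu on array 1. On array 2 the signals were 436 and 391. The genotypes overlapped, since the wild type sample of array 2 lay above the lu/lu sample of the same array. The log2 ratio was 1.28 and -0.16, with a mean of 0.56 (SD 1.02, n = 2 arrays) and an adjusted p from limma of 0.291. The second Rax probe lies 6037 bases away, was well above background in the 2 channels of array 2 only, and had a log2 ratio of -0.64 there.

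Foxd1 had a signal of 434 in wild type and 420 in lu/lu on array 1, and 405 and 351 on array 2. Its log2 ratio was -0.05 and -0.21, a mean of -0.13 with a 95% confidence interval from limma of -0.33 to 0.08 and an adjusted p of 0.35. With the GC trend removed the mean was -0.27 (interval -0.45 to -0.10, adjusted p from limma 0.0719), and with centring on the passing genes it was -0.24 (interval -0.43 to -0.05, adjusted p from limma 0.0841). When the array was centred on the median of all probes after normexp, the mean became 0.35, under a scaling that moved the median of all genes to 0.59. Relative to that median Foxd1 stayed lower in lu/lu.

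Six6, the paralogue of Six3 in the retina and the pituitary, had a signal of 48.8 in wild type and 232 in lu/lu on array 1. On array 2 the signals were 215 and 196. Of the 4 samples, the wild type sample of array 1 stood apart from the other 3, which lay between 196 and 232. The ratio was 4.74-fold on array 1 and 0.914 on array 2 (log2 ratio 2.25 and -0.13).

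Nkx2-4, a paralogue of Nkx2-1 expressed in the early hypothalamus, had a signal of 216 in wild type and 627 in lu/lu on array 1. On array 2 the signals were 220 and 139. Here the wild type samples were alike, and the lu/lu samples were the highest and the lowest of the 4. The log2 ratio was 1.54 and -0.67. The other probe gave 0.41 and -0.49 at signals of 43.9 to 91.3, so both probes changed sign between the arrays in the same way, with a smaller ratio at the dimmer probe on array 1.

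Nkx2-1, which is needed for the ventral hypothalamus, had a signal of 131 in wild type and 315 in lu/lu on array 1. On array 2 the signals were 154 and 214. Both lu/lu samples were above both wild type samples at this probe. The log2 ratio was 1.27 and 0.47. The other probe, with signals of 29.6 to 61.4, gave 0.06 and -0.29, so the 2 probes of Nkx2-1 disagreed in size on array 1 and in direction on array 2. Barhl2, a homeobox gene of the diencephalon and of retinal neurons, had a signal of 63.6 in wild type and 161 in lu/lu on array 1, and 79.7 and 89.5 on array 2. Its log2 ratio was 1.34 and 0.17, so the lu/lu samples were higher on both arrays but by unequal amounts. The GC content of the Barhl2 probe was 25%, the lowest of the 14 probes. Over the 10600 genes the log2 ratio fell with GC content, with a Spearman correlation across genes of -0.38 on array 1 and -0.20 on array 2, and with this trend removed the Barhl2 ratio was 1.08 and 0.09.

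**Figure D2:**
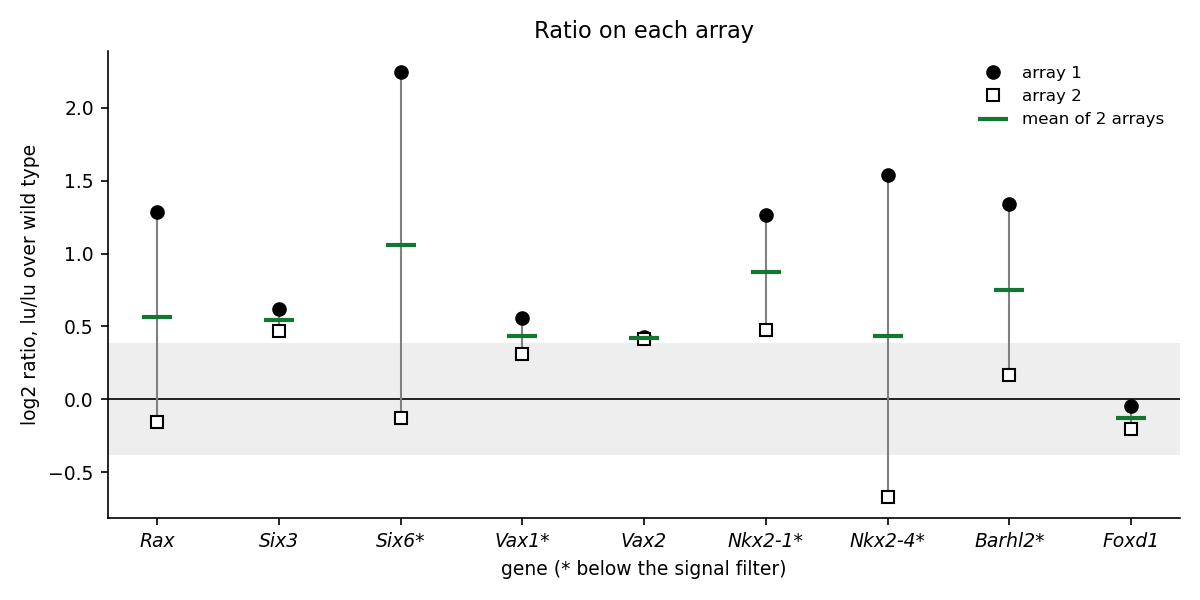
Log2 ratio of lu/lu over wild type for the brightest probe of each gene on array 1 (filled circles) and array 2 (open squares), with the mean of the 2 arrays as a green bar and the range within 1.3-fold in grey. All 9 circles lie above their squares, by 2.37 for Six6 and by 0.02 for Vax2, and stars mark the 5 genes below the signal filter.

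The brightest probe of each of the 9 genes was above background in all 4 channels. With this requirement in place of the signal filter, Six3, Vax2 and Nkx2-1 were above 1.3-fold on both arrays, 3 of 9 against 2.52% of 23283 genes, and 0 were below on both, against 2.07%. Nkx2-4 passed 1.3-fold in opposite directions, as did 0.893% of all genes. On array 1 taken alone, 8 of the 9 genes were above 1.3-fold, with Foxd1 the exception, against 9.48% of all genes, and 0 were below, against 9.67%. On array 2 alone, 3 were above, against 6.5%, and 1 was below, against 5.12%. Over the 9 genes the log2 ratio had a median of 1.27 on array 1 and 0.17 on array 2, against 0.02 and -0.0047 for all genes that passed the signal filter. Leaving out array 1 turned the ratios of Rax, Six6 and Nkx2-4 below 0.

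**Figure D3:**
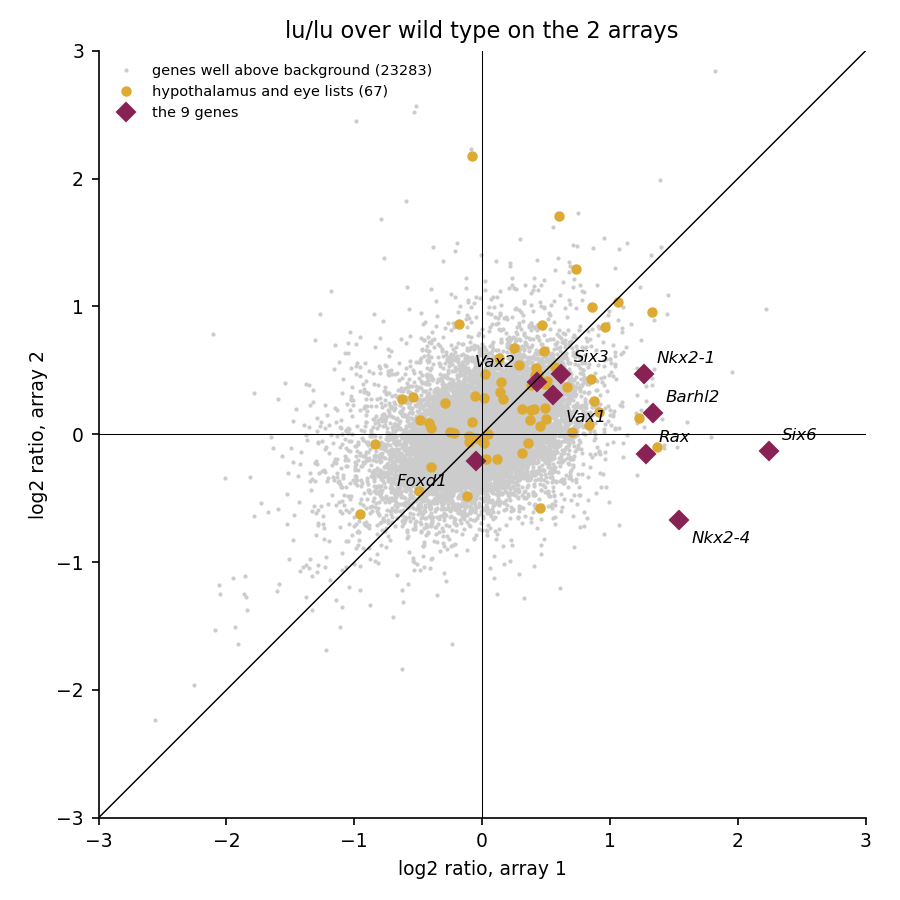
Log2 ratio of lu/lu over wild type on array 1 (x axis) and array 2 (y axis) for genes well above background (grey, 4 of them beyond the axes), 67 genes of the hypothalamus and eye lists (yellow) and the 9 genes (purple), with the line of equal ratios. Six3, Vax2 and Foxd1 lie near the line, while Six6, Nkx2-4 and Rax lie below 0 on the y axis at x values of 2.25, 1.54 and 1.28.

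The distance between the arrays came from different channels in different genes. Each level on array 1 was divided by the level of the same genotype on array 2 and set against the median of the genes that passed the signal filter. In wild type Six6 was far lower on array 1, with a log2 value of -2.15, while its lu/lu value was 0.20. Nkx2-4 showed the reverse, with -0.04 in wild type and 2.14 in lu/lu. Rax differed in both, with -0.86 in wild type and 0.56 in lu/lu. Barhl2 had -0.34 and 0.81, and Nkx2-1 had -0.25 and 0.52. For comparison, the SD of this value over the 10600 genes was 0.21 in wild type and 0.15 in lu/lu. Those genes passed the signal filter, while Six6, Nkx2-4, Barhl2 and Nkx2-1 did not. No SD was taken over dimmer genes. Six3, Vax1, Vax2 and Foxd1 stayed between -0.19 and 0.22 in both genotypes. Among the 23283 genes well above background, 9 had a larger distance between the ratios of the 2 arrays than Six6, 14 than Nkx2-4, 77 than Rax, 202 than Barhl2 and 746 than Nkx2-1.

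**Figure D4:**
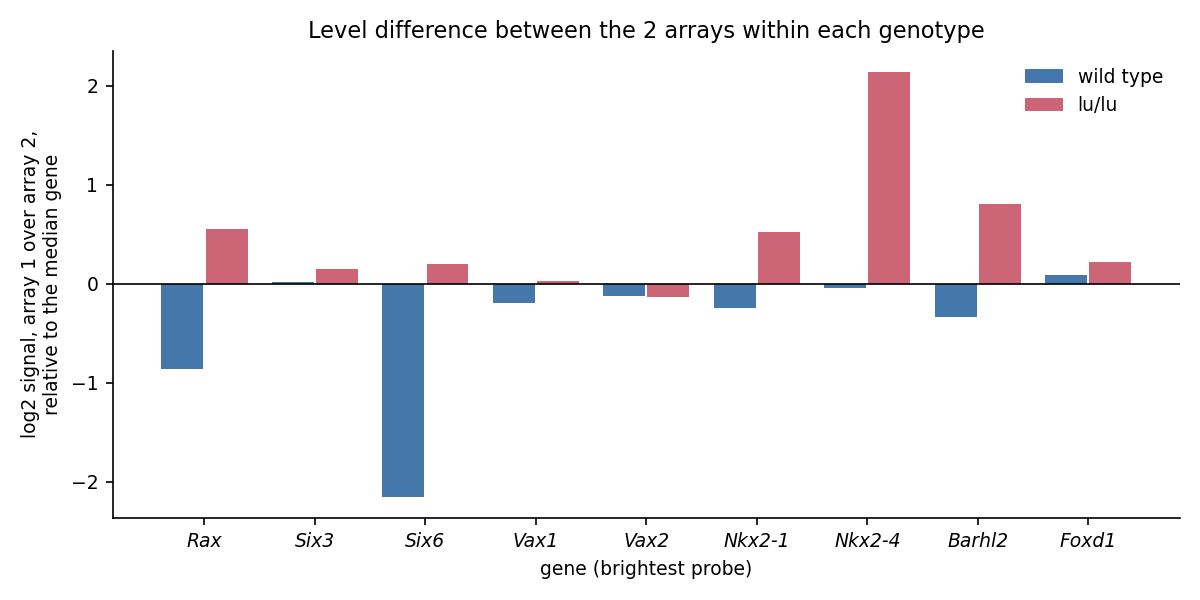
Log2 of the signal on array 1 over array 2 within wild type (blue) and within lu/lu (red), relative to the median gene, for each of the 9 genes. The bar of Six6 reaches -2.15 in wild type and that of Nkx2-4 reaches 2.14 in lu/lu, while the bars of Six3, Vax1, Vax2 and Foxd1 stay between -0.19 and 0.22.

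Of the marker sums given here, those of the erythroid and telencephalon genes in wild type differed most between the arrays. The sums of the placodes, the pigment epithelium and the endothelium differed more between the genotypes than between the arrays. The summed signal of 9 erythroid genes, all well above background, was 469609 and 194931 in wild type on arrays 1 and 2, and 251428 and 238024 in lu/lu. Their brightest gene, Hbb-y (an embryonic beta globin), had 146806 in wild type on array 1 and 56549 on array 2. The 13 telencephalon genes summed to 8145 and 6038 in wild type and to 9231 and 10085 in lu/lu, and their brightest gene Lhx2 had 2070 in wild type on array 1 and 1196 on array 2. The 18 genes of the lens, nasal and pituitary placodes, all well above background, summed to 13045 and 12468 in wild type. In lu/lu their sum was 18413 and 16779. Eya1 made up most of this sum in each sample. Its signals were 9168 in wild type and 13448 in lu/lu on array 1, and 8196 and 12286 on array 2. Gene by gene, the log2 ratios of the 18 centred on a median of 0.18 on array 1 and 0.07 on array 2. Only 2 of the 18 were above 1.3-fold on both arrays, and 0 were below. The 9 genes of the retinal pigment epithelium, led by Otx2 with 6 well above background, summed to 3185 and 3458 in wild type and 4044 and 4408 in lu/lu. Otx2 made up most of this sum. The other genes of this list that were well above background did not share 1 direction, and they are named after their values were seen. Tyr had log2 ratios of -0.38 and -0.25 and Dct had 0.04 and -0.18. Mitf had 0.31 and 0.20, Mlana had 0.37 and 0.22, and Pmel had 0.22 and 1.32. The 9 endothelial genes, all well above background and led by Egfl7, summed to 5125 and 5700 in wild type and 4331 and 4022 in lu/lu. The part of these tissues in the ratios of the 9 genes was not tested.

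The wider set of genes known from the hypothalamus and the eye was read from lists without the 9 genes. Of 41 hypothalamus regulators, 17 passed the signal filter. Of these, 3 were above 1.3-fold on both arrays and 0 below, against 2.58% and 0.736% of all genes tested. The median log2 ratio of the 17 was 0.28, against 0.01 for all genes tested. Among the 3 genes were Shh, the ligand of the ventral midline, and the forebrain homeobox gene Dlx2. Shh had signals of 536 and 1120 on array 1 and 677 and 1385 on array 2, and its log2 ratios averaged 1.05 (SD 0.02, n = 2 arrays). It was the 1 gene of these lists with an adjusted p from limma under 0.05, at 0.0469. The lists had 0 such genes with normexp and loess, with the deposited log2 ratios, with spots well above background, or with averaged probes. They had 10 of 34 with the GC trend removed (6.67% of all genes). With normexp they had 9 after centring on passing genes (14.3%) and 33 after centring on all probes (93.3%). Dlx2 had log2 ratios of 0.51 and 0.42. The brightest gene of the list, Sox3, had 0.14 and 0.33.

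Of 30 genes of the eye field and optic vesicle, 17 passed, with a median log2 ratio of 0.39. Of these, 7 were above 1.3-fold on both arrays and 0 below, against 2.58% and 0.736% of all genes. Six3os1, a noncoding transcript that starts next to Six3 in the opposite direction, had signals of 839 in wild type and 1517 in lu/lu on array 1, and 910 and 1226 on array 2. Its log2 ratios of 0.86 and 0.43 had the sign of those of Six3 on both arrays. Otx2 had log2 ratios of 0.38 and 0.39, Sox2 had 0.44 and 0.47, and Nr2f2 had 0.48 and 0.65. Bmp4, a ligand of the dorsal optic vesicle, had 0.49 and 0.40, and the ventral retinal receptor Ephb2 had 0.42 and 0.52. The brightest gene, Nr2f1, had 0.16 and 0.28. Of both lists together, 10 of 34 passing genes were above 1.3-fold on both arrays, against 2.58% of all genes. With the trend on GC content removed this count was 4 of 34, against 2.01% of all genes, and with the probes of each gene averaged it was 6 of 34, against 1.34%, while the median stayed between 0.25 and 0.33 except after centring on all probes (0.87, or 0.28 above the median of all genes in that setting).

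Of 31 paralogues of the 9 genes, 14 passed, and 2 of these, Six2 among them, were above 1.3-fold on both arrays. Below were 0 of the 14. Over all genes that passed the signal filter, 2.58% were above and 0.736% below, and each count of passing genes in this paragraph stands against these shares. Six2, a sine oculis type gene of the mesenchyme, had log2 ratios of 0.46 and 0.59. The median over the 14 was 0.05, against 0.01 for all genes, and the brightest, Prrx2, had 0.03 and -0.13. In the marker lists, Foxa2 of the midline floor (0.72 and 1.22), Tcf7l2 of the thalamus (0.78 and 0.48), Cdh2 of the neuroepithelium (0.60 and 0.44) and Eya1 of the placodes (0.55 and 0.58) were above 1.3-fold on both arrays. En2 of the midbrain (-1.86 and -1.25) and Emcn of the endothelium (-0.63 and -0.68) were below. Foxa2 and En2 both came from the midbrain and isthmus list, in which 1 of 7 passing genes was above and 1 was below. In the placode list of Eya1, 1 of 5 passing genes was above and 0 below. In the endothelial list of Emcn, 0 of 3 were above and 1 was below. Of 18 genes of head mesenchyme and neural crest, 14 passed and 0 were beyond 1.3-fold on both arrays, and the brightest, Msx1, had 0.23 and -0.01. Of the neuroepithelial genes 2 of 11 passing ones were above, and the brightest, Vim, had 0.10 and 0.18. In the diencephalon outside the hypothalamus 1 of 6 was above, and the brightest was Dbx1 with 0.70 and 0.02. The brightest hindbrain gene, Hoxb3, had signals of 177 to 220.

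Rax had both the largest mean log2 ratio and the largest distance between the arrays among the passing genes. The 3 genes whose pair of log2 ratios lay nearest to its pair, among 10596 others and by Euclidean distance over the 2 arrays, were Aldh1a3, Cdh1 and Dlk1. Aldh1a3, which makes retinoic acid in the ventral eye, had 1.37 and -0.10, at a distance of 0.10. Cdh1, the cadherin of epithelia, had 1.11 and -0.18, at a distance of 0.18. Dlk1, a membrane protein of the Notch ligand family, had 1.33 and 0.11, at a distance of 0.27. With 2 arrays, such likeness is a description of 2 values per gene.

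**Figure D5:**
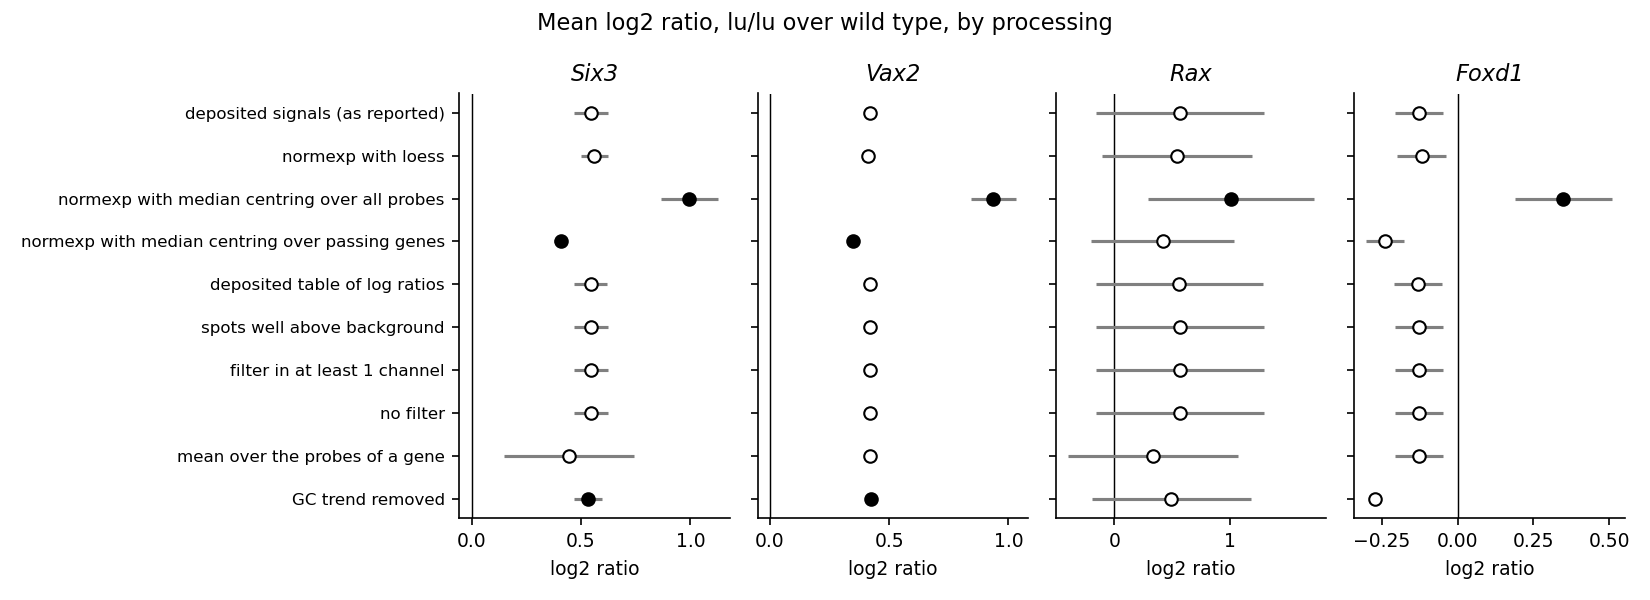
Mean log2 ratio (circles) and the values of the 2 arrays (ends of the grey lines) for Six3, Vax2, Rax and Foxd1 under each way of processing, with filled circles where the adjusted p from limma was under 0.05. Six3 and Vax2 stay above 0 on both arrays throughout, Rax crosses 0 except after centring on all probes, and Foxd1 is above 0 in that setting alone, with a mean of 0.35.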

How the data were processed

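RNA of wild type (Cy3) and lu/lu (Cy5) embryos was hybridized together on 2 arrays of 1 design, which lay on the same slide. The authors extracted spot intensity with Feature Extraction 10.7.3.1, whose settings removed background and balanced the dyes of an array by LOWESS on rank-consistent spots. The deposited files hold processed intensity and, as log10, the ratio of Cy5 over Cy3, and a second deposited table holds the ratio as log2, within 0.005 of the first. No normalization was made between the arrays. No gene spot was saturated.

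Controls and outlier spots were dropped, repeated spots of a probe were averaged as log2, and the brightest probe stood for its gene. An intercept model (limma 3.58.1, R 4.3.3, functions lmFit and eBayes) was fitted to the ratios, and p-values were adjusted by Benjamini-Hochberg across every gene that passed the signal filter. Each gene has 1 residual degree of freedom, so the error rests on the variance pooled over genes, and p-values measure the spread between these samples. Tables and plots used Python 3.11.15. Simulated data with 200 changed genes were used to check the fit. The 9 genes, the lists and the tests were chosen with earlier results of these data known.

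Named were all 9 genes, list genes beyond 1.3-fold in 1 direction on both arrays that passed the filter, the brightest gene of each list, and the 3 genes nearest to the passing gene with the largest mean ratio and to the one with the largest distance between arrays, both of which were Rax. A few genes selected in this way are not given. Alternatives were normexp (offset 50) with loess or with median centring, the deposited log2 table, other filters, the mean over the probes, removal of the GC trend (lowess, span 0.67), a fit of the channels without pairing by array, eBayes with trend, 1.5-fold, the average of both arrays and either array by itself. For the lists, 5 of these were added after seeing the data. The number of arrays limits the precision.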

Additional observations from a re-analysis of the deposited data

How the results depend on the processing

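With 2 arrays, every ratio below the signal filter has no more than 2 dim values behind it. Of the 4 genes that passed the filter, 0 had an adjusted p under 0.05 in limma; the number was 4 with normexp and centring on all probes (93.3% of all genes), 2 with centring on passing genes (14.3%) and 2 with the GC trend removed (6.67%). It was 0 in the other alternatives, including eBayes with trend. Of the same 4 genes, 2 were above 1.3-fold on both arrays (2.58% of all genes). This became 1 with averaged probes (1.34% of all genes), where Vax2 was left, and 0 with centring on passing genes (4.29%). It was 0 at 1.5-fold and 3 by the mean of both arrays (with Rax), for which the share of all genes was not taken. On array 1 alone it was 3 (8.25%), and on array 2 alone it was 2 (4.5%). Under each of the looser filters, which admit more of the 9 genes, 3 were above (with Nkx2-1). These were 3 of 9 with spots well above background (2.52% of all genes) and with no filter (4.57%). With the signal filter in at least 1 channel of each array they were 3 of 7 (2.78%). The number below stayed at 0 in all alternatives run, against 0.736% of all genes with the signal filter. Foxd1 turned to 0.35 with centring on all probes. On single arrays Rax ranged from -0.16 (without array 1) to 1.28, Six6 from -0.13 to 2.25 and Nkx2-4 from -0.67 to 1.54.

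For the hypothalamus and eye lists, 10 of 34 above and 0 below became, with the share of all genes above in parentheses, 16 and 2 of 67 with spots well above background (2.52%), 19 and 2 of 71 with no filter (4.57%), 4 and 0 of 34 with the GC trend removed (2.01%), 25 and 0 of 34 with centring on all probes (69.2%), and 6 and 0 of 34 with averaged probes (1.34%). On single arrays they lay between 13 and 17 above and between 0 and 3 below, where array 2 alone had 4.5% of all genes above and array 1 had 8.25%. The causes were not tested. The ratio within an array pairs the genotypes, and a fit of the channels without this pairing also called 0 of the 4 genes.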

Other observations

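Some genes of the hypothalamus list followed the 9 genes in having the larger ratio on array 1. They were picked after their values were seen. Tbx3, a T-box gene of the tuberal hypothalamus, had signals of 291 in wild type and 682 in lu/lu on array 1 and 321 and 351 on array 2, which gives log2 ratios of 1.23 and 0.13. Its paralogue Tbx2 had ratios of 1.33 and 0.96 at signals of 88.1 to 258. Lhx5 had 0.92 and 0.17, and Dbx1 had 0.70 and 0.02. In each of Tbx3, Lhx5 and Dbx1 the wild type samples were closer to each other than the lu/lu samples.

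Further genes with unequal arrays were also picked after their values were seen. Aldh1a1, a retinoic acid synthesis enzyme of the dorsal retina, had the larger ratio on array 2. It had a wild type signal of 113 on array 1 and 151 on array 2 and reached 680 in lu/lu on array 2, so its log2 ratio was -0.08 and 2.17. Aldh1a3 of the ventral eye, with the larger ratio on array 1, showed the low value in wild type on array 1, with signals of 291 and 751 on array 1 and 700 and 654 on array 2, as Six6 and Rax did. Of the 9 genes with a larger distance between the arrays than Six6, Gm34786 had a signal of 1157 and Erdr1 one of 16285 in wild type on array 2, against 20.3 and 864 in wild type on array 1, and Xlr4b and Xlr3b were lowest in wild type on array 2, with 89.6 and 48.2.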
